A study of Homo sapiens with 4 samples.

Results

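The 9 genes examined here are ones that p53 is known to switch on during growth arrest, MDM2, CDKN1A, GADD45A, SESN1, SESN2, BTG2, ZMAT3, TP53I3 and RRM2B. They were examined for H3K9la, histone H3 lactylated at lysine 9. They were taken as a named set of 9 among 19974 protein-coding genes, and every region that overlapped one of them or lay within 50 kb of it was kept. This gave 49 of the 56875 regions of the sg3 arm and 41 of the 40332 regions of the V2 arm. The cells were KYSE30, an established line from an oesophageal squamous cell carcinoma, grown in DMEM with serum. Both arms, sg3 and V2, have 1 ChIP library made with an anti-H3K9la antibody and 1 input library, and the labels give no treatment, genotype or meaning for the arm names. The series title presents SIRT3, a sirtuin, as an eraser of the mark, so the arms pose the question of where the mark differs. With 1 peak list per arm there were no replicates, no test was made, and each difference between sg3 and V2 compares 2 libraries.

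The transcription factor p53 is stabilised by DNA damage and other stress and binds near its target genes to raise their transcription. Some targets stop the cell cycle or slow growth, some restore nucleotides and redox balance, and MDM2 feeds back by marking p53 for degradation. Lysine lactylation of histones is an acyl mark that draws on lactate and is found mostly around active promoters and enhancers. A region at a gene shows where the mark lay and does not measure transcription.

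Per the submitters' processing notes the regions came from MACS2 on hg38. Each carries the authors' fold enrichment, the ratio of ChIP pileup to background at its highest point (the summit), and the authors' -log10 q, where a larger value marks a stronger call. Both values were used to rank regions inside their own list, and their sizes are not compared between sg3 and V2. Some alternative counts apply the same cut-off to both lists, although a given value need not mean the same strength in each. Read depth is not given in the lists. The median -log10 q over whole lists was 13.0 in sg3 and 12.6 in V2, and sg3 regions had a median width of 618 bases, against 560 bases for V2 regions. As a check of the labelled cell type, 10 of 10 squamous markers had an sg3 region within 1 kb of a gene end and 8 of 10 had a V2 region, with KRT5 and TP63 lacking one. Of 12 liver, blood, fibroblast and endothelial markers, 2 had an sg3 region and 0 had a V2 region.

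The start of transcription was known from a RefSeq promoter table for 7 of the 9 genes. GADD45A and RRM2B are placed by the coordinates of their ends instead. The promoters below run from 250 bases before to 50 bases after the start (GRCh38.p14, 5′ to 3′ on the gene's own strand). They are shown because they give how much of the sequence around each start lay inside an sg3 region, and capitals mark those bases. MDM2 (chr12:68807922-68808221, plus strand), CDKN1A (chr6:36678464-36678763, plus) and BTG2 (chr1:203305269-203305568, plus) had a region of both arms near the start. SESN1 (chr6:109094797-109095096, minus) and ZMAT3 (chr3:179071760-179072059, minus) had a region of sg3 alone.
MDM2: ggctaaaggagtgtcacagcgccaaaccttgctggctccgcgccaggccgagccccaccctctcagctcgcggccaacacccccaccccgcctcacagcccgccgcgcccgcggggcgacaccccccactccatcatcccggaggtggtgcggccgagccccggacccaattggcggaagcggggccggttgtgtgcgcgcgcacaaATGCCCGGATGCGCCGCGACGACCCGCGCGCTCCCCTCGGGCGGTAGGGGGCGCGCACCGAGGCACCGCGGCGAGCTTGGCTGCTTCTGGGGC
CDKN1A: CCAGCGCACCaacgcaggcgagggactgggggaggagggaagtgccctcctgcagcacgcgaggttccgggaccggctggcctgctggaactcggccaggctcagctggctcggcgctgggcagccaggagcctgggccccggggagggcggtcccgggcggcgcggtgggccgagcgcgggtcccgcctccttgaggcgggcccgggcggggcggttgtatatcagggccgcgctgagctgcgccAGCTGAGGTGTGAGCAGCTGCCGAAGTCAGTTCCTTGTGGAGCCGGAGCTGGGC
BTG2: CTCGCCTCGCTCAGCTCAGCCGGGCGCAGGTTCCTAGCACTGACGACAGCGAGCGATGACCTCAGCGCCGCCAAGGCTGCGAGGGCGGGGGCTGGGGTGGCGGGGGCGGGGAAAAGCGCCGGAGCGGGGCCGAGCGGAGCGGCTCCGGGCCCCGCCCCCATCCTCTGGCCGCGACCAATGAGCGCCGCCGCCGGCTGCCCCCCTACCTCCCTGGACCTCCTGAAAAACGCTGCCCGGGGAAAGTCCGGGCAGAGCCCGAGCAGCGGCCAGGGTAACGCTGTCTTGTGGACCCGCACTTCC
SESN1: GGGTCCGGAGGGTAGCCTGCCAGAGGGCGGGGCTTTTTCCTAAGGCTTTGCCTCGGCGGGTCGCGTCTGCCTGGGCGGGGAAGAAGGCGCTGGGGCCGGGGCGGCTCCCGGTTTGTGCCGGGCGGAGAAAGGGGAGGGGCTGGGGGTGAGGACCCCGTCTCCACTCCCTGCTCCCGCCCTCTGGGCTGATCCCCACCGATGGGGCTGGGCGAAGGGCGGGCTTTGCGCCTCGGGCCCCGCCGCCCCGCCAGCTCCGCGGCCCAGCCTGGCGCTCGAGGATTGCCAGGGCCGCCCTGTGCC
ZMAT3: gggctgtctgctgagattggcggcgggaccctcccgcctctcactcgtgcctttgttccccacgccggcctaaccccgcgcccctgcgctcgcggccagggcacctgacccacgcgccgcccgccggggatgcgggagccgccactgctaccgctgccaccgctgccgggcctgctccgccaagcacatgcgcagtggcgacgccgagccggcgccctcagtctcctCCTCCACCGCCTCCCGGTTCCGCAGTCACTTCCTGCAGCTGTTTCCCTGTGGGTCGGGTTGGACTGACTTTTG

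In MDM2 the capitals begin 43 bases before the start, and in CDKN1A a region begins 4 bases before it (the first 10 bases of its window belong to another region upstream), so most of the upstream window lay outside regions. The V2 regions began after the start in both genes, at 6 bases for MDM2 and 108 bases for CDKN1A. In BTG2 the whole window lay inside the sg3 region, whereas the V2 region held its last 77 bases. SESN1 was covered throughout in sg3, ZMAT3 over its last 73 bases, and neither had any base inside a V2 region. The SESN2 window held no base of a region, since the sg3 region there began 194 bases after the start, and the TP53I3 window held none in either arm.

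The TP53I3 promoter also stood apart in base composition. Its GC content was 54.3% with 9 CG dinucleotides, while the other 6 promoters ranged from 67.0% in SESN2 to 75.0% in SESN1 with 25 to 39 CG dinucleotides. Over 15812 coding-gene promoters the median was 62.7% GC and 22 CG. The motif GGGCGG was searched on both strands and was found in these 6 promoters (8 times in SESN1 and 4 times in CDKN1A) but not in TP53I3, and 58.5% of all promoters hold it. Searched in the same way, the p53 half-site had no match in any of the 7 windows and TATAAA had none, against 5.93% and 9.64% of all promoters. These letters were sought in 300 bases only, and the known p53 sites of several targets lie outside such windows.

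By gene ends, all 9 genes were marked in sg3 and 5 in V2. Counting any region that came within 1 kb of a gene's lower or higher coordinate, the same held for 47.2% of all coding genes in sg3 and 28.8% in V2. MDM2, CDKN1A, GADD45A, BTG2 and TP53I3 were marked in both arms, as were 28.3% of coding genes. SESN1, SESN2, ZMAT3 and RRM2B were marked in sg3 alone, a state seen in 18.9% of coding genes. None of the 9 was marked in V2 alone, and 0.501% of coding genes were. The 4 sg3-only genes had sg3 regions there with -log10 q between 7.45 in SESN2 and 17.8 in RRM2B. The RRM2B region stood at percentile 63.3 of the sg3 list by -log10 q. Those of SESN1, SESN2 and ZMAT3 were below the list median of 13.0. Over all coding genes whose strongest sg3 region at an end lay under a -log10 q of 20, 73.9% had no V2 region at an end, so sg3-only marking was common at this strength. The 4 genes at 20 or more (GADD45A, MDM2, BTG2 and TP53I3) all had a V2 region, where 19.1% of such genes lacked one. The count of 4 sg3-only genes became 2 at a -log10 q of at least 10 and 1 at a fold enrichment of at least 4. The shares of coding genes at these cut-offs were not computed.

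Over the full windows all 9 genes had an sg3 region, as did 78.3% of coding genes, and 7 had a V2 region, as did 64.4%. In total sg3 held 49 regions covering 45546 bases with a mean width of 930 bases, and V2 held 41 regions covering 33872 bases with a mean width of 826 bases. The covered length was 1.34 times as great in sg3, against 1.75 times over whole lists. Without MDM2, where V2 covered slightly more, the ratio was 1.82. A V2 partner was found for 29 of the 49 sg3 regions, or 59.2% (95% Clopper-Pearson CI 44.2 to 73.0%, counting error only), beside 52.4% over the whole list. An sg3 partner was found for 30 of the 41 V2 regions, or 73.2% (95% CI 57.1 to 85.8%), beside 86.3% over the whole list. Of the 11 V2 regions with no sg3 partner, 7 lay around MDM2, and without MDM2 16 of 20 V2 regions had a partner. Without MDM2, 16 of 33 sg3 regions had a partner, a share under the 52.4% of the whole list. Regions of 1 gene share a locus and are not independent of each other, so these intervals are too narrow.

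**Figure D1:**
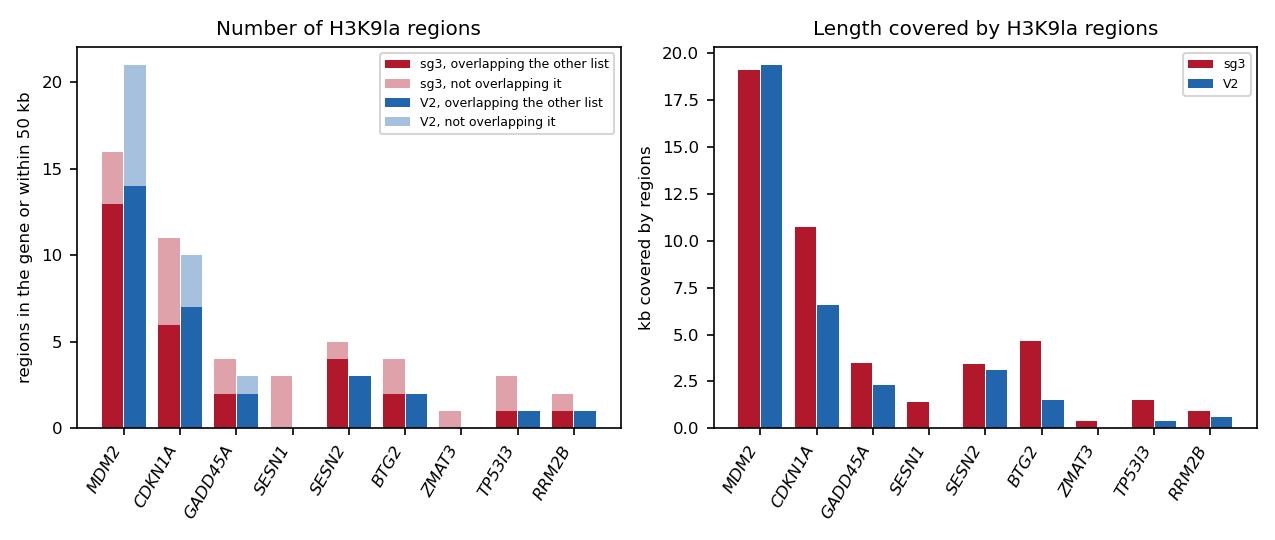
Number of H3K9la regions (left) and kilobases they cover (right) in each gene or within 50 kb of it, with sg3 in red left of V2 in blue; pale parts are regions that do not overlap the other list. MDM2 and CDKN1A hold most regions in both arms, and SESN1 and ZMAT3 have regions in sg3 only.

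MDM2, the ubiquitin ligase that restrains p53, lay at the end of a long marked stretch (chromosome 12, 68808172 to 68850686, plus strand). It had 16 sg3 regions and 21 V2 regions within 50 kb, more than any other of the 9 genes in each arm, where the median coding gene had 3 in sg3 and 1 in V2. Between the end of the neighbouring gene SLC35E3 and a point 1 kb inside MDM2, a stretch of 27704 bases, 14 sg3 regions covered 64.8% of the bases and 15 V2 regions covered 57.7%. This stretch was picked after its values were seen. Stretches of the same length that end 1 kb inside the start of other coding genes had a median cover of 1.75% in sg3 and 0% in V2. Cover at or above that of MDM2 was found at 99 of 15812 starts in sg3, MDM2 included, and at 61 in V2.

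The strongest regions of MDM2 by -log10 q sat on its start in both arms. The sg3 region ran from -43 to 736 bases relative to the start, with a summit at 391, a fold enrichment of 10.4 (-log10 q 98.8), which ranked 726 in its list. The V2 region ran from 6 to 706 bases, with a summit at 359, a fold enrichment of 11.0 (-log10 q 87.3), which ranked 419 in its list. Further upstream the order of heights differed between the lists. In sg3 the highest fold enrichment of the stretch was 12.4, in the region from -7226 to -6163 bases, whose V2 partner from -7229 to -6165 bases had 6.23. In V2 the highest was 15.4, in the region from -20439 to -18036 bases, whose sg3 partner from -20480 to -18062 bases had 10.7. The edges of each pair nearly coincided, while the pair that stood highest was not the same in the lists.

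Some regions around MDM2 had no partner. In V2, 4 regions lay past the gene, between 55966 and 66541 bases from its start and inside CPM, a carboxypeptidase gene, with fold enrichments of 3.91 to 6.02 and no sg3 region there. Another 3 V2 regions without a partner lay in SLC35E3 or within 1 kb of its end. In sg3 the regions without a partner were 1 at the end of SLC35E3, 1 at -25201 bases and a weak one inside MDM2 from 1822 to 2548 bases (fold enrichment 2.31, -log10 q 3.03). Apart from the regions on its start and this weak one, the body of MDM2 held no region in either arm.

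**Figure D2:**
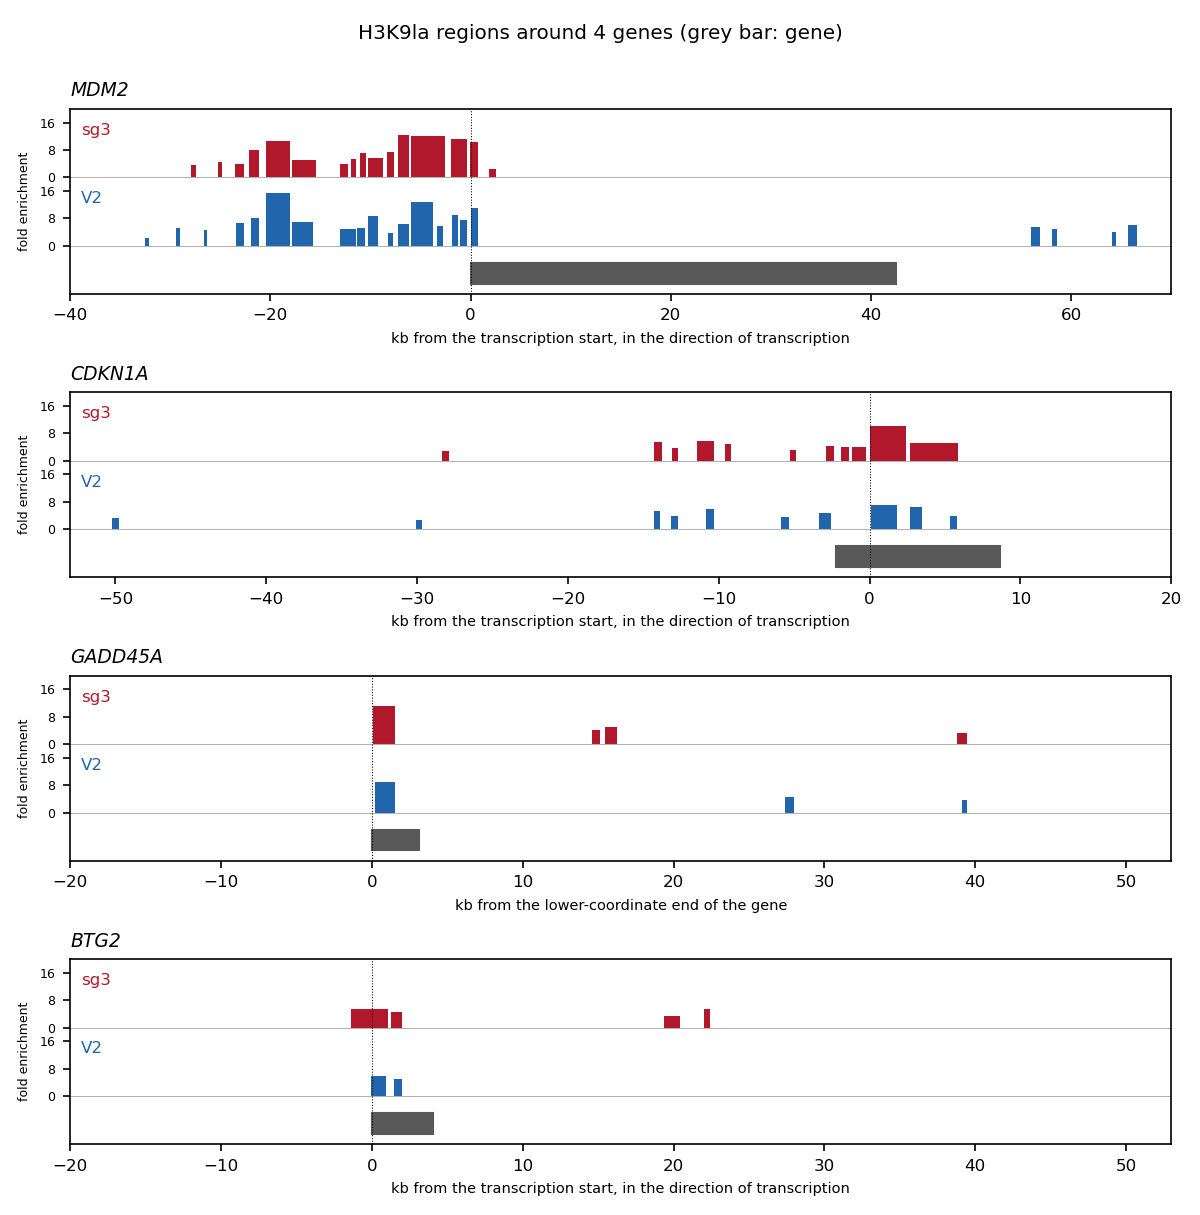
H3K9la regions of sg3 (red, upper row) and V2 (blue, lower row) around MDM2, CDKN1A, GADD45A and BTG2. The horizontal axis is distance in kb, box height is the authors' fold enrichment on a scale not comparable between the arms, and grey bars are the genes. Both arms share the long stretch before MDM2 and the region inside CDKN1A.

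CDKN1A, which encodes the cyclin-dependent kinase inhibitor that carries out much of the p53 arrest, had its main region just past the promoter start in both arms (chromosome 6, 36676463 to 36687332, plus). The sg3 region ran from -4 to 2433 bases relative to that start, at a fold enrichment of 10.0 (-log10 q 87.6). The V2 region ran from 108 to 1818 bases, at a fold enrichment of 7.21 (-log10 q 48.6). Both summits lay at 1184 bases, so the peak position was the same to the base while the sg3 region reached further on both sides. Over all overlapping pairs the sg3 region was the wider in 81.6%. A second sg3 region from 2702 to 5857 bases (fold enrichment 5.06) overlapped 2 V2 regions, from 2667 to 3456 bases (6.47) and from 5298 to 5760 bases (3.88). These regions lie inside the annotated gene and more than 1 kb from its ends, so the gene-end count above rests on weaker regions.

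Upstream of the CDKN1A promoter start the arms differed more. In sg3, 3 regions stepped up to the start, from -2861 to -2366, from -1867 to -1374 and from -1148 to -241 bases, with fold enrichments of 4.33, 3.92 and 4.10. Their -log10 q values were 9.86, 8.96 and 9.49, all under the sg3 list median of 13.0. Over the whole sg3 list 52.4% of regions had a V2 partner, so regions without one were common. V2 had 1 region there, from -3336 to -2544 bases (4.62), which overlapped the first of these. The sg3 region nearest the start overlapped DINOL, a noncoding RNA that p53 induces and that is transcribed away from CDKN1A, and it had no V2 partner. PANDAR, another p53-induced noncoding RNA upstream, was overlapped by a weak sg3 region from -5306 to -4896 bases (-log10 q 5.07). No V2 region overlapped PANDAR, but a V2 region from -5899 to -5347 bases (5.99) lay directly beside that sg3 region without overlapping it. Farther out, sg3 and V2 shared 3 regions between -14305 and -10320 bases. In all, CDKN1A had 11 sg3 regions covering 10732 bases and 10 V2 regions covering 6575 bases, of which 6 in sg3 and 7 in V2 had a partner.

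GADD45A, a stress sensor that binds cell cycle kinases, had the highest -log10 q of the 9 genes in sg3 and the second highest in V2 at a gene end (chromosome 1, 67685201 to 67688334). Its sg3 region ran from 67685306 to 67686751 at a fold enrichment of 11.2 (-log10 q 125.4), rank 252 in the list. Its V2 region ran from 67685384 to 67686727 at a fold enrichment of 9.02 (-log10 q 84.7), rank 466. Both lay wholly inside this short gene, toward its lower-coordinate end, and their widths were 1446 bases in sg3 and 1344 bases in V2. Apart from it, the window held weak regions toward and inside GNG12, a G protein subunit gene, with -log10 q of at most 11.8 in sg3 and 8.14 in V2. Of these weak regions 1 pair overlapped.

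BTG2, an antiproliferative gene of the BTG/TOB family, was marked over its start in both arms, and more widely in sg3 (chromosome 1, 203305519 to 203309602, plus). The sg3 region ran from -1383 to 1096 bases and the V2 region from -27 to 963 bases, with widths of 2480 bases in sg3 and 991 bases in V2. A wider sg3 region was the rule, found in 81.6% of all overlapping pairs. The summits lay at 259 bases in sg3 and 267 bases in V2. The upstream part of the sg3 region reached into BTG2-DT, a divergent noncoding gene, and the V2 region did not. A second region inside the gene was shared, from 1299 to 1992 bases in sg3 (fold enrichment 4.54) and from 1458 to 1979 bases in V2 (5.00). Past the gene, sg3 alone had a region from 22040 to 22441 bases with a -log10 q of 29.4, one of the 2 sg3 regions at 20 or more without a partner. The other 16 of the 18 sg3 regions at that strength had one, beside 85.6% over the whole sg3 list. All 15 V2 regions at 20 or more had an sg3 partner, beside 99.5% over the whole V2 list, so both counts were close to the background.

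The sestrin genes SESN1 and SESN2, whose proteins restrain growth signalling under stress, were marked at the start in sg3 alone. SESN1 (chromosome 6, 108984309 to 109094846, minus) had sg3 regions and no V2 region within 50 kb, as did ZMAT3 and 14.5% of coding genes, and the nearest V2 region was 198708 bases from the gene. Its sg3 region at the start ran from -305 to 236 bases at a fold enrichment of 3.24 (-log10 q 11.5), and it also lay within 1 kb of the end of CEP57L1. A stronger sg3 region lay 85323 to 85793 bases into the gene, at a fold enrichment of 7.16 (-log10 q 36.4). There SESN1 overlaps ARMC2, so the region belongs to both gene bodies. This was the strongest of the 20 sg3 regions without a partner.

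SESN2 (chromosome 1, 28259518 to 28282491, plus) had an sg3 region from 194 to 612 bases after its start, at a fold enrichment of 3.20 (-log10 q 7.45), at percentile 21.6 of its list by -log10 q. The nearest V2 region to the gene was 11168 bases away. It lay from -11898 to -11168 bases with a fold enrichment of 7.39 and overlapped an sg3 region from -11821 to -11139 bases with 6.54. The remaining regions of the SESN2 window stood within 1 kb of an end of the neighbouring gene MED18 in both arms. The exception was an sg3 region from 28327542 to 28327991, which lay farther from MED18. With 1 start used per gene, both sestrin starts were thus marked weakly in sg3 and carried no V2 region, while shared regions of the SESN2 window lay elsewhere. Other possible starts of these genes were not examined.

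**Figure D3:**
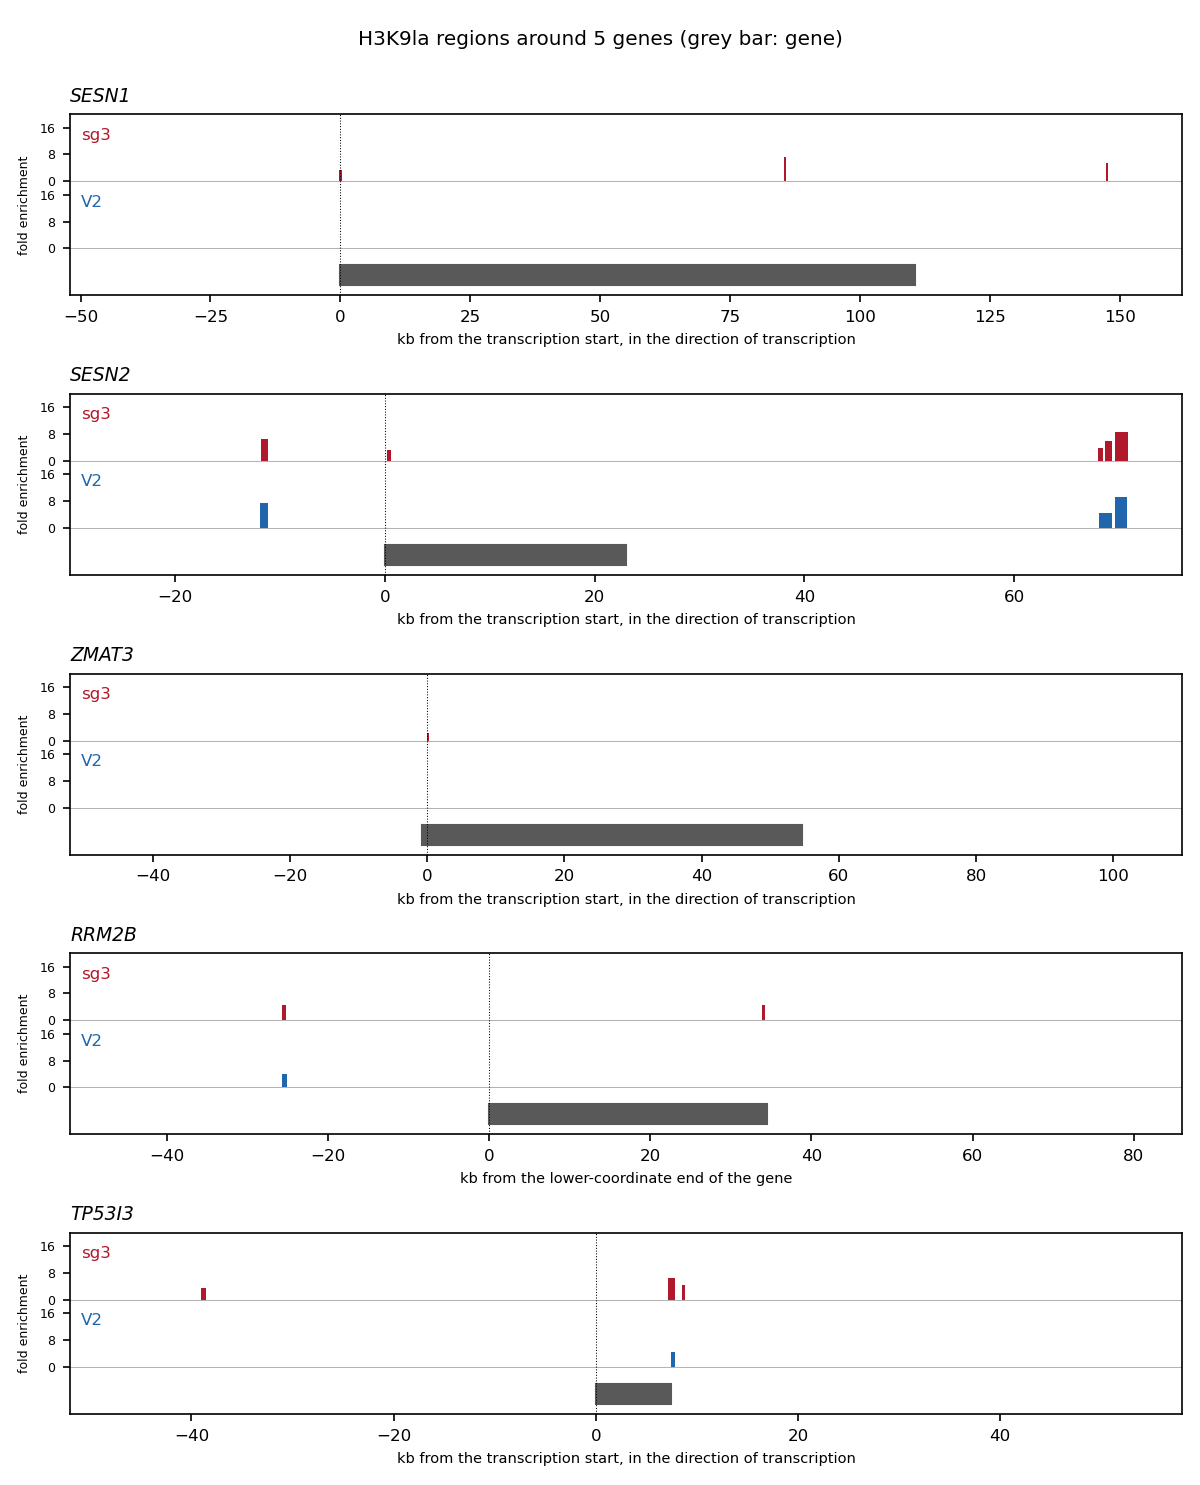
H3K9la regions of sg3 (red, upper row) and V2 (blue, lower row) around SESN1, SESN2, ZMAT3, RRM2B and TP53I3, with distance in kb on the horizontal axis, the authors' fold enrichment as box height (not comparable between the arms) and genes in grey. The starts of SESN1, SESN2 and ZMAT3 and the higher-coordinate end of RRM2B carry a low sg3 region and no V2 region.

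ZMAT3, a zinc finger protein that binds RNA, had a single sg3 region and no V2 region within 50 kb (chromosome 3, 179017223 to 179072513, minus). The sg3 region ran from -23 to 339 bases with its summit at 61 bases, a fold enrichment of 2.33 (-log10 q 8.95). The nearest V2 region was 75758 bases from the gene. RRM2B, the p53-inducible small subunit of ribonucleotide reductase, had an sg3 region from 102238336 to 102238764 near its higher-coordinate end (chromosome 8, 102204501 to 102238961), at a fold enrichment of 4.59 (-log10 q 17.8). The nearest V2 region to it lay 58943 bases away. The other RRM2B region lay below the gene and was in both arms, from 102178792 to 102179301 in sg3 (4.48) and from 102178778 to 102179393 in V2 (4.02).

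TP53I3, a quinone oxidoreductase gene, was marked at its far end and not at its start (chromosome 2, 24077433 to 24084834, minus). The sg3 region ran from 24077029 to 24077704 at a fold enrichment of 6.63 (-log10 q 32.8), and the V2 region ran from 24077003 to 24077417 at 4.62 (19.5). The ends of FAM228B and of SF3B6, a splicing factor gene, also lie within 1 kb of both regions, so they may not belong to TP53I3. Counting starts alone, 6 of the 7 genes with a known start had an sg3 region within 1 kb, against 47.0% of coding genes, and 3 had a V2 region, against 28.0%. TP53I3 was the one with none in sg3.

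Pairs were made by overlap, which by itself keeps partners close, so their distances are given only beside those of all pairs. The 32 overlapping pairs had a median summit distance of 40 bases, beside 61 bases over all 35528 pairs, and 22 of 32 lay within 100 bases (68.8%, beside 62.5% of all pairs). The sg3 member of the pair was the wider in 22 of 32, beside 81.6% of all pairs. The median width ratio of sg3 over V2 was 1.21, beside 1.43 for all pairs. Regions without a partner were narrower and lower than those with one in each list. In sg3 their median fold enrichment was 4.01, against 5.90 with a partner, and in V2 it was 4.56, against 6.11. Their median width was 453 bases against 826 in sg3 and 452 against 780.5 in V2. MDM2 supplied 13 of the 29 sg3 regions and 14 of the 30 V2 regions with a partner. A wider region meets a region of the other list more readily, so the split by width was partly fixed by the overlap rule. The same split over whole lists was not made, so nothing particular to these genes is read from it.

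Other genes of the p53 network were mostly marked in both arms. Of 33 listed regulators, relatives of p53 and further targets, 29 had an sg3 region at a gene end (87.9%, beside 47.2% of coding genes) and 22 had a V2 region (66.7%, beside 28.8%). All 22 were among the 29, and 7 were in sg3 alone (21.2%, beside 18.9%). The list was chosen with earlier results of these data known. In it, 4 genes had no region at an end in either arm, namely TP53BP1 and ATR, which act in damage signalling, the death receptor gene FAS, and AEN, an exonuclease gene, all named after their values were seen.

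Among 11 regulators and kinases, 6 were marked in both arms (28.3% of coding genes were) and 3 in sg3 alone (18.9% were). PPM1D, the phosphatase that switches the response off, had the highest -log10 q of this group in sg3, at 69.3, and EP300, an acetyltransferase gene, the highest in V2, at 48.0. The sg3-only genes were the checkpoint kinase genes CHEK2 (-log10 q 30.0) and CHEK1 (13.7) and USP7 (8.23), a deubiquitinase that acts on MDM2. The CHEK2 region lay beyond the higher-coordinate end of the gene and also at an end of HSCB, so it may not belong to CHEK2. Both listed p53 relatives, TP63 (8.94) and TP73 (8.95), were in sg3 alone.

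Targets that act in cell death were marked in both arms in 7 of 10 cases. For this and the next groups, 28.3% of coding genes were marked in both arms and 18.9% in sg3 alone. The groups are small, and differences between them are a description only. PHLDA3, an AKT inhibitor gene, led the group with a -log10 q of 159.9 in sg3 and 100.2 in V2. TRIAP1, a mitochondrial lipid carrier gene, was in sg3 alone (18.5), and its region also lies at GATC. Of 6 repair and metabolism targets 5 were in both arms, led by the secreted factor gene GDF15 with 105.2 in sg3 and 54.3 in V2. Its sg3 region was 20840 bases wide and also reached an end of PGPEP1. FDXR, a mitochondrial electron carrier gene, was in sg3 alone (8.81), in a region that also lies at an end of FADS6. All 4 other cell cycle targets were in both arms, led by the kinase gene PLK3 with 142.0 in sg3 and 68.3 in V2, in regions at different sites. Its sg3 region was 9307 bases wide and reached the ends of DYNLT4 and BTBD19 too.

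**Figure D4:**
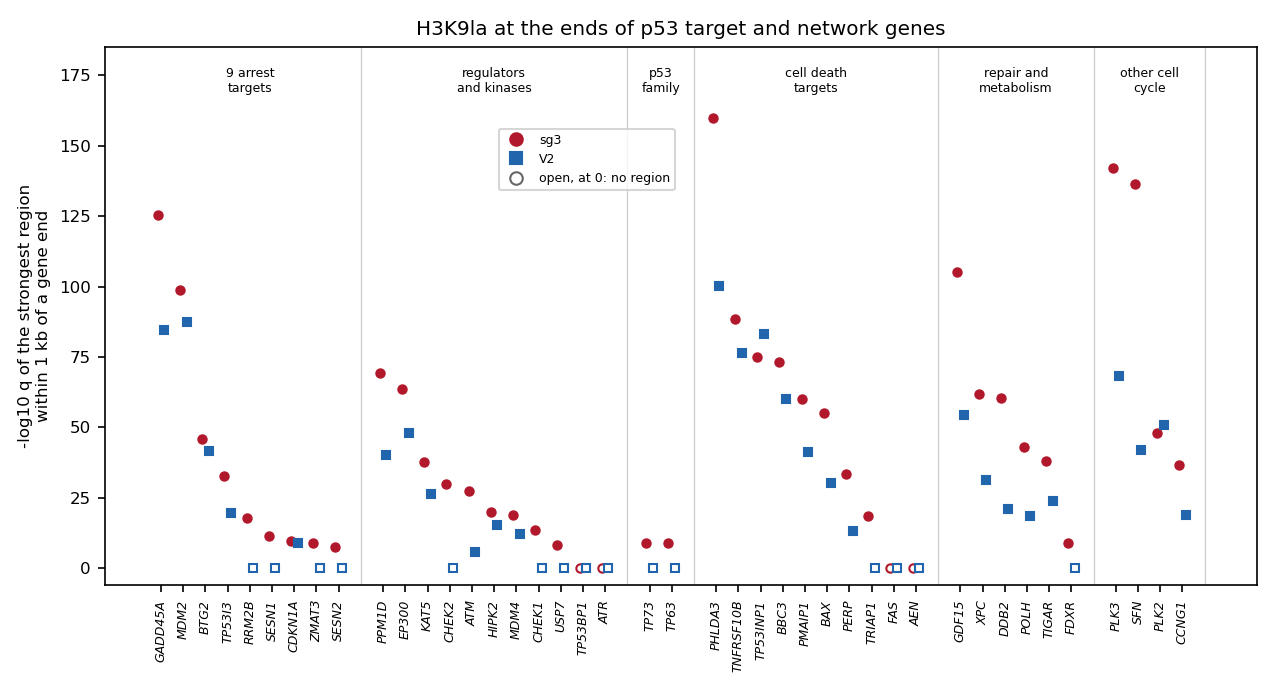
The -log10 q of the strongest region within 1 kb of a gene end for the 9 arrest targets and 33 network genes, sg3 as red circles left of V2 as blue squares; open symbols at 0 mark no region. Values rank genes within an arm only. Genes with an sg3 region and no V2 region sit at 30.0 or below in sg3.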

How the data were processed

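Both lists are in the narrowPeak layout of MACS2. Per the submitters' processing notes, the build was hg38 and peaks came from MACS2 2.2.9.1 after alignment with Bowtie2 2.5.1, with Trim Galore 0.6.10, FastQC 0.12.1 and SAMtools 1.18 also named. Neither the command line nor the control library is given in the sources used here. GEO files the V2 list with the V2 input sample and the sg3 list with its ChIP sample, and each was taken as called on 1 library. Fold enrichment (a ratio), -log10 p and -log10 q are the authors' deposited values, and the -log10 p and the integer score they deposited were not used. The smallest -log10 q was 2.02 in sg3 and 2.01 in V2, so weaker sites are unlisted.

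Coordinates were made 1-based and joined to RefSeq genes and promoters of GRCh38.p14 with Python 3.11.15 and pandas 2.3.3. Promoter entries matched 15812 of 19974 coding genes. Records did not overlap within a list. An overlap of 1 base made 2 regions partners. Counting was checked on simulated regions with known overlaps. All 9 genes are named, with genes whose ends lie within 1 kb of their regions, the listed relatives, and network genes in sg3 alone or strongest in both arms. The genes and lists were chosen with earlier results of these data known.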

Additional observations from a re-analysis of the deposited data

How the results depend on the processing

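The alternatives gave 86 values, of which 64 stayed within 1.5 times the reported one. Limiting the distance to 10 kb left 25 sg3 regions covering 26737 bases and 18 V2 regions covering 15128 bases, with partners for 14 in sg3 and 17 in V2. Counting only regions that overlap a gene left 15 sg3 regions covering 13888 bases and 7 V2 regions covering 6495 bases, with partners for 7 in sg3 and 7 in V2. Merging records within 1 kb gave 27 sg3 and 26 V2 regions, with partners for 12 in sg3 and 15 in V2. A -log10 q of at least 10 left 31 sg3 regions, 2 arrest targets in sg3 alone and 4 network genes in sg3 alone. A fold enrichment of at least 4 left 1 arrest target and 4 network genes in sg3 alone. Counting starts only, for the 7 arrest targets with a known start, left 3 with a V2 region. Half-overlap of both regions, lists of equal length and 2.5 kb at gene ends moved no count by over 1.5 times. Apart from starts, the same counts over whole lists and all coding genes were not made under these alternatives. The partner and sg3-only counts here thus have no background at the same setting, and the shares given above do not apply to them. No paired analysis was possible because each arm has 1 peak list. Depth is not given, and sites below the calling limit of either list are not seen.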

Other observations

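Of 10 relatives of the 9 genes, 8 had a region at a gene end in both sg3 and V2, beside 28.3% of coding genes. None was in sg3 alone, beside 18.9% of coding genes. With so few genes these counts are a description, and nothing particular to the relatives is read from them. MDM4, which binds p53 beside MDM2, had a -log10 q of 19.0 in sg3 and 12.2 in V2. CDKN1B, a kinase inhibitor like CDKN1A, had 62.6 in sg3 and 34.0 in V2, in a region that also lies at GPR19, while CDKN1C had no region at an end. GADD45B had 21.7 in sg3 and 7.92 in V2, at different sites, and GADD45G 8.88 in sg3 and 3.32 in V2. SESN3 had none, whereas SESN1 and SESN2 had sg3 regions. BTG1 had 28.9 in sg3 and 19.8 in V2, and BTG3 30.0 in sg3 and 14.3 in V2. The ribonucleotide reductase genes RRM1 (40.4 in sg3, 19.2 in V2) and RRM2 (15.4 in sg3, 4.42 in V2) were marked in both arms, where RRM2B was in sg3 alone. These values rank genes within an arm only.

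The sg3 summit of the strongest region at a start lay at 51 bases for SESN1, 61 for ZMAT3, 259 for BTG2, 391 for MDM2, 473 for SESN2 and 1184 for CDKN1A. Over 7433 coding genes with an sg3 region within 1 kb of the start, the median was 267 bases (interquartile range -280 to 356). The sg3 summits of MDM2, SESN2 and CDKN1A lay past the upper quartile. In V2 the summits lay at 267 bases for BTG2, 359 for MDM2 and 1184 for CDKN1A, and the V2 median over 4424 genes was 263 bases (-390 to 359).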
